A study of Mus musculus with 56 samples.

Results

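The cytosolic ribosomal proteins are the protein components of the ribosome that translates messenger RNA outside the mitochondria. Their genes were taken by name: every gene on the array whose symbol begins with Rpl or Rps and a digit, together with Rplp0, Rplp1, Rplp2 and Rpsa, leaving out the Rps6k kinases. This gave 92 genes among 30199 named on the array, measured by 202 probes, with the brightest probe kept for each gene. Of these, 89 passed a detection filter that 18765 genes passed, and Rpl3l, Rpl39l and Rpl7l1 did not. The 89 held 42 proteins of the large subunit, 3 stalk proteins, 31 of the small subunit and 5 variant paralogs. The remaining 8 were taken in by the spelling of their names: 6 carry a pseudogene name, Rps12l2 is a copy of Rps12, and Rps19bp1 encodes a protein that binds Rps19 and is no part of the ribosome.

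Blood was drawn from C57BL/6 mice, 10 to 12 weeks old on receipt, that had received 200 kBq of 90Sr in a tail vein or the saline vehicle alone. 90Sr is a beta emitter that settles in bone and irradiates the marrow beside it continuously. Separate control and 90Sr mice were killed at each of days 4, 7, 9, 25 and 30, with 4 mice per group at day 4 and 6 per group afterwards, each mouse giving about 0.4 mL of blood for 1 of the 56 arrays. Whole blood lysed in the tube holds RNA of every blood cell, and globin transcripts were depleted before labelling. In such bulk RNA, fewer cells of a type and less RNA per cell cannot be told apart.

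A ribosome consists of a large and a small subunit, and most of its proteins are present as a single copy, so the genes are commonly regarded as a co-expressed set. Most of their mRNAs begin with a tract of pyrimidines next to the cap (the TOP motif), through which the TOR kinase controls their translation. In blood, reticulocytes still carry ribosomes and their mRNAs and lose them on maturing, lymphocytes are rich in them, and inherited loss of 1 copy of any of several of these genes causes Diamond-Blackfan anaemia.

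The start regions of several members whose levels differed most between the groups are shown, so that the letters where a TOP tract would lie can be compared. Each line gives 30 bases from RefSeq (GRCm38.p6), read 5′ to 3′ on the gene's strand, with 15 bases on either side of the annotated start, and capitals mark the longest unbroken run of C and T.
Rpl14, chr9:120571502-120571531, plus strand: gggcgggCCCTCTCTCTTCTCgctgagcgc
Rps18, chr17:33955651-33955680, minus strand: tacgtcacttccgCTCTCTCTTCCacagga
Rpl18, chr7:45718056-45718085, plus strand: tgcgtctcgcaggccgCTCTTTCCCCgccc
Rps25, chr9:44407699-44407728, plus strand: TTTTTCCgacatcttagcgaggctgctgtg
Rplp0, chr5:115559452-115559481, plus strand: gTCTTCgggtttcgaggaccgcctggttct
Rplp2, chr7:141447636-141447665, plus strand: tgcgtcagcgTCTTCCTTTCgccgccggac
Rpl35, chr2:39005117-39005146, minus strand: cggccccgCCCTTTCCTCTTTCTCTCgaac
Rpl41, chr10:128549154-128549183, minus strand: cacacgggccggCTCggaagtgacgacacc
The first 4 belong to members that were lower after 90Sr, and the last 4 to members with higher median-scaled values. The longest run was 14, 11, 10 and 7 bases in the first 4 and 5, 10, 18 and 3 bases in the last 4, so that both sets hold long and short runs. Of the 89 members, 62 had a start region in the table, the first listed being used where there were several. A run of 8 or more C and T lay in the 30-base window of 25 of the 62 (40.3%), against 11.9% of 27025 start regions in all. It lay in 8 of the 20 members with the lowest mean change over the 5 days and in 8 of the 20 with the highest. The letters CTTTCC, searched on both strands within 50 bases of the start, were found in 9 of the lowest 20, 7 of the highest 20 and 8.74% of all start regions. The letters CTTCCG, the core of ETS factor sites, which can overlap CTTTCC in part, were found in 6 of the lowest 20, 11 of the highest 20 and 9.44% of all. These matches describe the letters at annotated starts, which can lie some bases from the true one.

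Before the results, the arrays themselves were compared. Control arrays had 17809 to 24698 spots well above background and 90Sr arrays 14389 to 22524, and no member was saturated on any array. Arrays correlated with the median of the rest of their group at 0.966 or higher. At day 4 all controls lay on 1 slide and all 90Sr arrays on another, so slide and treatment cannot be told apart there. At days 7 and 30, 4 of the 6 90Sr arrays were scanned on a day with no control array, and 2 arrays of each group shared a slide at days 7, 9, 25 and 30. Replicate 1 of the day 9 90Sr mice stood apart for the members: their mean level was 9.12 log2 units above the array median, against 9.99 to 10.25 in the other 5 mice, so day 9 is given with and without it. Values are log2 signal minus the array median, and each change is the 90Sr mean minus the control mean of that day. The choice of scale matters for direction. The median change of all genes at the 5 days in turn was -0.01, 0.00, -0.08, -0.10 and 0.12 with median scaling, 0.47, 0.35, 0.31, 0.38 and 0.31 with 75th percentile scaling, and -0.57, -2.00, -1.33, -0.76 and -0.43 with spike-in scaling.

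Beside the members, the marker lists moved as follows, and their part in the members' changes was not tested. All 13 erythroid and reticulocyte markers were measured and all 13 were higher over the 5 days, with a median mean change of 0.80. Their mean level was 8.13 to 9.30 in the control mice and 9.01 to 10.1 in the 90Sr mice, with overlap within a day at day 25 alone. Of 12 B cell markers, 11 were lower, with a median mean change of -2.17, and within each day the 90Sr mice lay below the controls: their mean level was 4.71 to 5.82 in controls and 2.89 to 4.68 after 90Sr. The 13 T cell markers had a median mean change of -0.28, the 12 neutrophil markers -0.53, the 7 measured monocyte markers -0.95, the 7 NK cell markers -0.67 and the 10 platelet markers 0.22.

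With median scaling, ribosomal protein mRNAs did not all move in the same direction. Some members were lower and others higher in the same 90Sr mice at every day. With quantile normalization, 1 to 3 members were higher at adjusted p under 0.05 at each day, against 18.4% to 30.8% of all genes. With spike-in scaling none was higher, against 0% to 8.53% of all genes. The median-scaled changes ran from -1.11 to 0.71 at day 4 and from -1.48 to 1.37 at day 30 on the log2 scale. The SD of the members' changes was 0.47 at day 4 and 0.65 at day 30, against 0.84 and 1.08 over all genes. By the threshold of the study's methods (p under 0.001 and at least a 2-fold change, in limma), 2 of 89 members were called at day 4 against 19.4% of all genes. At day 7 no member was called by limma, against 14.6% of all genes, although 50 members had an unadjusted p under 0.05. On day 9 limma called 3 members against 18.1% of all genes. Later the counts were 8 against 25.4% (day 25) and 10 against 31.6% (day 30). Every member called was lower after 90Sr, apart from Rpl28 at day 30. That direction depends on the scale: with 75th percentile scaling the 4, 1, 14 and 3 members called at days 4, 7, 9 and 25 were all higher, and at day 30, 5 were lower and 6 higher. Over all genes, 17.3%, 12%, 13.7%, 19.8% and 16.1% were called lower on the 5 days in turn, and 2.08%, 2.59%, 4.41%, 5.62% and 15.5% higher. Rpl14 was called on 4 days, and Rps18 and Rps25 on 3. Without replicate 1 of the day 9 90Sr mice, none of the 3 at day 9 was called, and 4 others were called higher (Rpl35, Rpl41, Rps12 and Rps12l2), against 16.6% of all genes.

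Without a minimum fold, members passed in both directions. In all, 35, 44, 27, 48 and 51 members passed on the 5 days, against 53.7%, 57.6%, 42.5%, 64% and 64.1% of all genes. At adjusted p under 0.05 in limma, 25 members were lower and 10 higher at day 4, where 33.6% of all genes were lower and 20.1% higher. At day 7 the counts were 35 lower and 9 higher (33.6% and 24% of all genes). At day 9 they were 15 and 12 (27.3% and 15.2%), and 14 and 39 without replicate 1 of the 90Sr mice (26.8% and 19.3%). At day 25 they were 42 and 6 (38.3% and 25.7%), and at day 30 they were 28 and 23 (29.7% and 34.3%). Counting mice in place of p-values, every 90Sr mouse lay below every control for 24, 17, 12, 34 and 8 members on the 5 days, against 32.2%, 23.7%, 18.5%, 27.6% and 13.3% of all genes. Every 90Sr mouse lay above every control for 12, 2, 0, 3 and 16 members, against 18.2%, 8.46%, 5.22%, 7.77% and 15.1%. The split between lower and higher depends on the scale. With 75th percentile scaling, 10, 13, 8, 18 and 21 members were lower at the 5 days in turn (22.3%, 23.1%, 18.1%, 24.6% and 26.1% of all genes) and 49, 40, 46, 39 and 32 were higher (47.8%, 43.5%, 33.1%, 45.7% and 40.6%). With quantile normalization, 37, 45, 34, 54 and 54 were lower (27.9%, 28.3%, 24.2%, 31.2% and 31.4%) and 1, 3, 2, 2 and 1 were higher (27.3%, 27.8%, 18.4%, 30.2% and 30.8%). With spike-in scaling, 49, 89, 58, 61 and 33 were lower (47.6%, 97.5%, 71.9%, 51.1% and 35.1%) and none was higher (1.37%, 0%, 0.0639%, 0.991% and 8.53%).

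The median change of the 89 members over the 5 days in turn was -0.07, -0.21, 0.14, -0.31 and -0.17. Relative to the median of all genes given above, which removes the effect of a constant scale, the members stood at -0.06, -0.21, 0.22, -0.21 and -0.29. With quantile normalization they stood below all genes at each day, at -0.34, -0.33, -0.21, -0.40 and -0.56. The sign of the members' own median turned with 75th percentile scaling at days 4, 7, 25 and 30 (0.41, 0.14, 0.17 and 0.015). It turned with normexp background correction at days 9, 25 and 30 (-0.03, 0.71 and 0.66), and with slide as a fixed block at days 9 and 30 (-0.23 and 0.044). At day 9 it also turned with quantile normalization (-0.22) and spike-in scaling (-1.11). The same held at day 9 with the variation filter (-0.57, 23 members) and the authors' processed values (-0.65, 32 members). At day 4 it turned to 0.03 without control replicate 3.

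**Figure D1:**
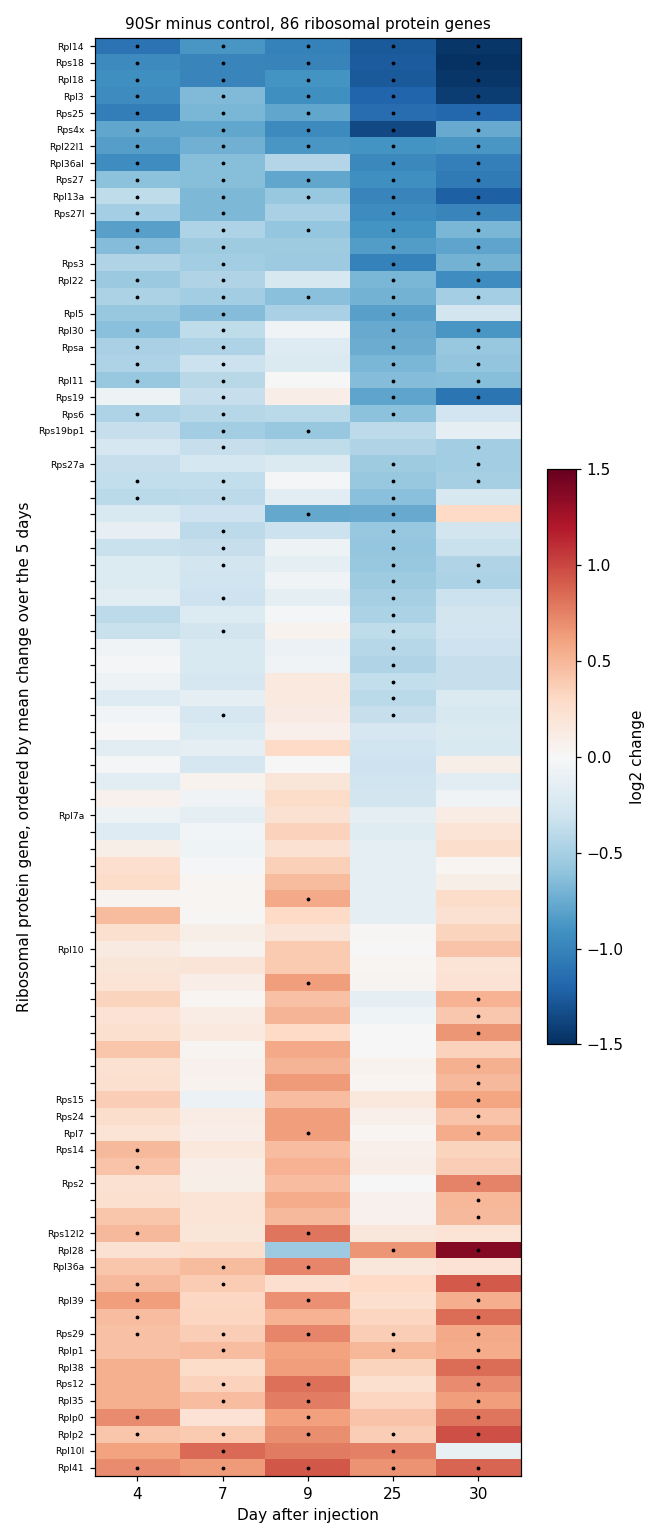
Log2 change (90Sr minus control, median-scaled arrays) of 86 of the 89 ribosomal protein genes at each of the 5 days; rows are genes ordered by their mean change over the days, those named in the text are labelled, colour is the change, and a dot marks adjusted p under 0.05 in limma. Rpl14 at the top was lower at every day and Rpl41 at the bottom higher at every day, and most rows keep 1 colour across the 5 columns.

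The order of the members was nearly the same at each day, although every day had its own control and its own 90Sr mice. The Spearman correlation of the 89 changes between days ran from 0.812 (days 9 and 30) to 0.968 (days 7 and 25), and over all 18765 genes from 0.633 to 0.874. These are correlations across genes, which are not independent replicates. The members were ranked by their day 4 change and the lowest 29 set against the highest 29, as a description. At day 25 all of the lowest 29 were below 0, with a median of -0.88, and 24 of the highest 29 above it, with a median of 0.16. At day 30 the counts were 29 and 28, with medians of -0.78 and 0.52. In single mice of the later days, the mean level of the low set minus that of the high set lay between -2.17 and -1.21 in all 24 control mice and between -3.07 and -1.89 in all 24 90Sr mice. Within each day the groups did not overlap (at day 30, -2.17 to -1.21 in controls and -3.05 to -2.39 after 90Sr). The order was compared between settings: it correlated with the main order at 0.906 or higher with quantile normalization, at 0.875 or higher with normexp background correction, and at 0.895 or higher when only the slide holding both groups was compared at days 7, 9, 25 and 30. The correlation was lower, 0.839 to 0.925, with the second brightest probe (64 members), and 0.716 to 0.843 with the authors' processed values (32 members).

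**Figure D2:**
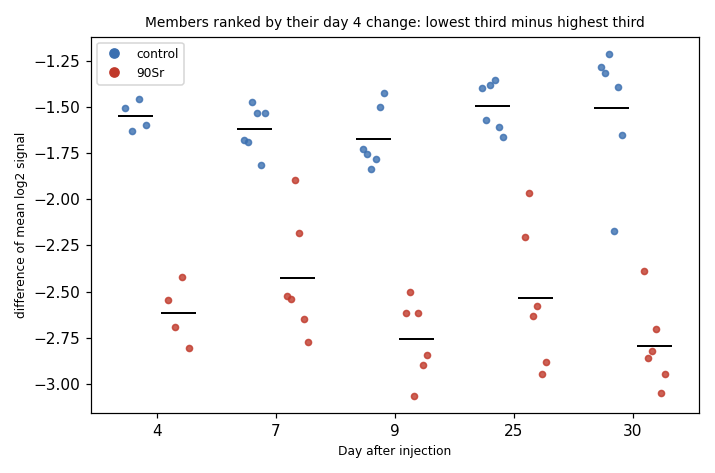
Mean log2 level of the 29 members with the lowest day 4 change minus that of the 29 with the highest, 1 point per mouse, controls in blue and 90Sr in red, with the group mean as a black line, against day. The day 4 points rest on the ranking itself; at days 7 to 30 the red points lie below the blue ones of the same day.

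Among the large-subunit proteins, Rpl14, Rpl18 and Rpl3 fell the furthest. Rpl14, a protein of the large subunit, was 10.29, 10.22, 10.67 and 9.92 in the 4 controls of day 4 and 9.38, 8.96, 9.20 and 9.12 in the 90Sr mice. At day 30 the controls ran from 9.76 over a median of 10.64 to 10.86, and the 90Sr mice from 8.67 over 8.98 to 9.60. Every 90Sr mouse lay below every control of its day at all 5 days. The changes were -1.11 ± 0.18 (SE, n = 4), -0.87 ± 0.13, -1.01 ± 0.24, -1.26 ± 0.22 and -1.46 ± 0.22 (n = 6 from day 7 on), with limma adjusted p of 0.00084, 0.00022, 0.0033, 0.00041 and 0.00014. Without replicate 1 the day 9 change was -0.82. Its second probe, on another accession, gave a mean change of -1.07 against -1.14 for the brightest. The array's annotation places this second probe on chromosome 7 and the brightest on chromosome 9. A much dimmer probe on chromosome 9 gave -0.73.

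Rpl3, which lies close to the peptidyl transferase centre, was 8.98, 8.88, 9.23 and 8.55 in the day 4 controls and 8.07, 7.85, 8.09 and 7.84 after 90Sr. Its changes ran from -0.66 at day 7 to -1.42 at day 30, and the groups overlapped at day 7 alone. The array's annotation places its brightest probe on chromosome 5 (mm9), while RefSeq has the gene on chromosome 15, so a near-identical copy may share the signal. A second Rpl3 probe, placed on chromosome 15, gave a mean change of -1.02 against -1.03 for the brightest. Rpl18 changed by -0.90 at day 9 to -1.45 at day 30, at adjusted p of 0.003 or lower at all 5 days. Rpl22, which also binds RNA outside the ribosome, and its paralog Rpl22l1 were both lower: Rpl22 by a mean of -0.57 ± 0.09 and Rpl22l1 by -0.84 ± 0.09 over the 5 days (limma, adjusted p = 9.7e-08 and 1.4e-12). A second, much dimmer Rpl22 probe (mean level 2.83, against 9.46 for the brightest) gave -1.40.

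At the other end stood Rpl41, the shortest of the ribosomal proteins, made almost wholly of basic residues. It was 14.09, 14.25, 14.19 and 14.22 in the day 4 controls and 14.93, 14.89, 14.70 and 15.05 after 90Sr. At day 25 the controls ran from 13.87 over 13.91 to 14.06 and the 90Sr mice from 14.27 over 14.58 to 14.99. The groups were apart at days 4, 7, 25 and 30 and overlapped at day 9 through replicate 1. The changes were 0.71 ± 0.12, 0.63 ± 0.13, 0.93 ± 0.23, 0.68 ± 0.15 and 0.88 ± 0.17, all at adjusted p of 0.004 or lower in limma, and 1.11 at day 9 without that mouse. With quantile normalization they shrank to between -0.07 and 0.24 and none passed, and with spike-in scaling they ran from -1.36 to 0.33, so the rise is one relative to the median gene.

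Rpl35 (mean change 0.54 ± 0.08), Rpl38 (0.52) and Rpl39 (0.48 ± 0.09) lay close to Rpl41 in the order, and Rpl10 (0.20 ± 0.09) nearer to 0. Of the 42 large-subunit proteins, 19 were lower over the 5 days combined and 18 higher at adjusted p under 0.05, with a median of -0.01. Over all genes tested 40% were lower and 43% higher, with a median of 0.08.

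The 3 stalk proteins, which recruit the translational GTPases to the ribosome, lay together at the high end. Rplp0, the base of the stalk, was 12.66, 13.27, 13.14 and 13.03 in the day 4 controls and 13.54, 13.69, 13.78 and 13.92 in the 90Sr mice. At day 30 the controls ran from 12.78 over 12.93 to 13.30 and the 90Sr mice from 13.34 over 13.78 to 14.16, again without overlap. Its changes were 0.71 ± 0.16, 0.22 ± 0.13, 0.62 ± 0.20, 0.43 ± 0.19 and 0.81 ± 0.18, and those of days 4, 9 and 30 passed (adjusted p = 0.0054, 0.02 and 0.0013 in limma). Rplp0 had 3 probes, whose mean changes were 0.55, 0.51 and 0.67.

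Rplp2 passed at all 5 days, with changes of 0.37 to 0.96, and Rplp1 at days 7, 25 and 30, with changes of 0.44 to 0.61 over the 5 days. The brightest Rplp1 probe is placed on the X chromosome by the array's annotation and the gene on chromosome 9 by RefSeq. A second Rplp1 probe, placed on chromosome 9, gave changes of 0.24 to 0.64. Its mean change was 0.40, against 0.52 for the brightest. Averaged over the days, the 3 proteins changed by 0.52 to 0.57 with median scaling, by 0.89 to 0.95 with 75th percentile scaling, by -0.07 to 0.01 with quantile normalization and by -0.49 to -0.43 with spike-in scaling. Their direction thus depends on the scale, and in each of the 4 they stood above Rpl14, whose mean changes were -1.14, -0.77, -1.36 and -2.14. With median scaling, the 222 other genes in the level range of the 30 brightest members had a median mean change of 0.53. The part of signal strength in the values of the stalk proteins was not tested.

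**Figure D3:**
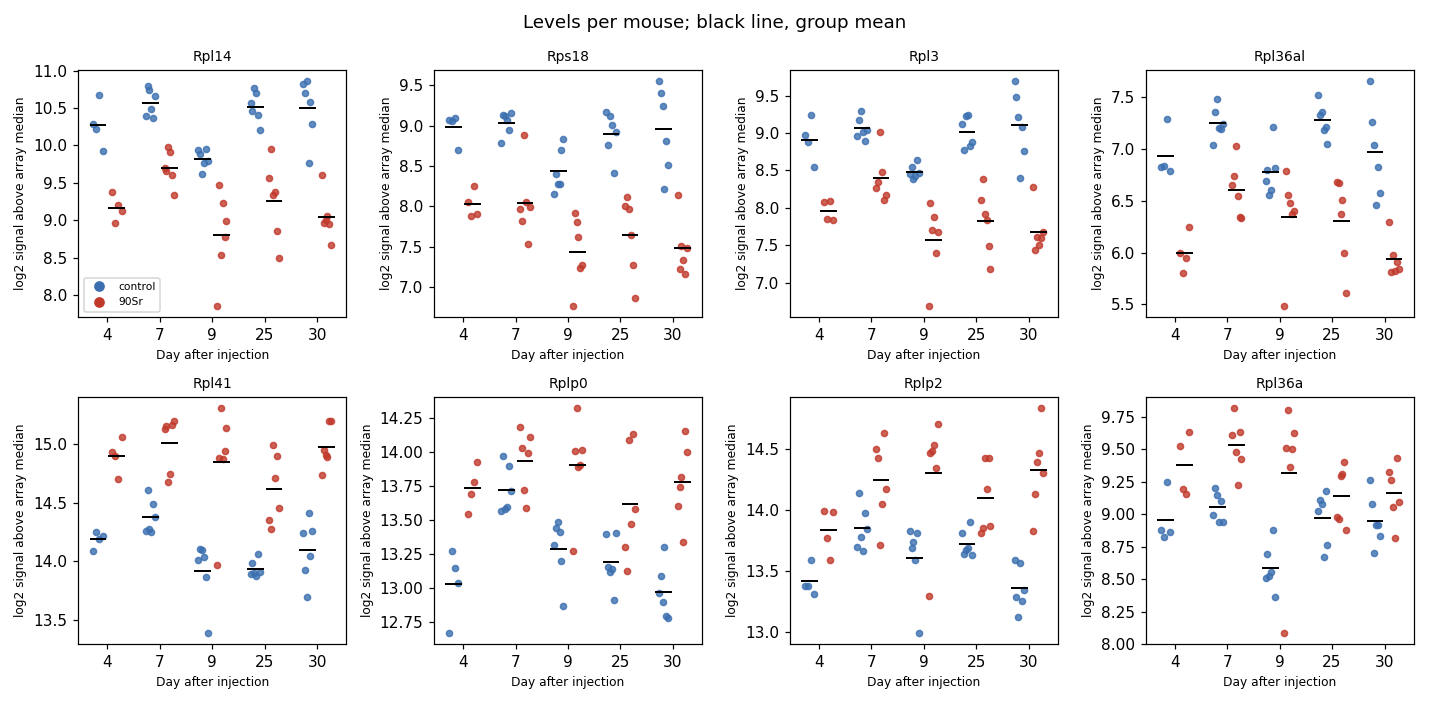
Log2 signal above the array median in each mouse for 4 members of the low end (top row) and 4 of the high end (bottom row), by day; blue, control; red, 90Sr; black line, group mean. In the Rpl14 panel every red point lies below every blue point of its day; the low red point of day 9 in the Rpl41, Rplp2 and Rpl36a panels is replicate 1.

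Among the small-subunit proteins, Rps18, Rps25 and Rps4x were among those that fell the furthest. Rps18, in the head of the subunit, was 9.07, 9.05, 9.10 and 8.70 in the day 4 controls and 8.06, 7.89, 8.25 and 7.91 after 90Sr. At day 7 the controls ran from 8.78 over 9.09 to 9.15 and the 90Sr mice from 7.53 over 7.98 to 8.88, with 1 90Sr mouse among the controls. Its changes were -0.95 ± 0.14 at day 4 and -1.48 ± 0.25 at day 30 (limma adjusted p = 0.00065 and 0.00027), and the test of a difference between days gave an adjusted p of 0.54. A second Rps18 probe gave a mean change of -1.07 against -1.14.

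Rps25, needed for initiation at some viral leaders, changed by -0.68 at day 7 to -1.18 at day 30. Rps6, the protein phosphorylated by S6 kinase, was lower at days 4, 7 and 25 (-0.46, -0.43 and -0.61) and not past the threshold at days 9 and 30 (-0.40 and -0.29). Rpsa, the laminin receptor protein, was lower at days 4, 7, 25 and 30, by -0.46 to -0.75, and at -0.19 at day 9. With 75th percentile scaling neither Rps6 nor Rpsa passed at any day, and Rps6 stood at 0.02 at day 4. Rps27a, made as a fusion with ubiquitin, was lower at days 25 and 30 (-0.53 and -0.52), and not past the threshold there with 75th percentile scaling (-0.05 and -0.33). Rps29 and Rps12 stood at the high end, with mean changes of 0.50 and 0.53. Of the 31 small-subunit proteins, 18 were lower over the 5 days together and 8 higher, with a median of -0.22, against 40% lower and 43% higher over all genes.

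With each of the 4 scalings (array median, 75th percentile, quantile, spike-in), 10, 13, 8, 18 and 21 members were lower at adjusted p under 0.05 in limma at the 5 days in turn, against 22.3%, 23%, 18.1%, 24.5% and 26.1% of all genes. At all 5 days 7 members were so, against 12.7% of all genes, among them Rpl14, Rps18, Rpl18, Rpl3 and Rpl22l1. No more than 3 members at any day were higher under the first 3 scalings alike, and none of these was so at more than 3 days. This count uses 3 scalings in place of 4, and its share of all genes is not given. It thus cannot be read as particular to the members.

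The paralogs allowed closely related proteins to be set side by side. Rpl36a and Rpl36al encode nearly the same protein from the X chromosome and chromosome 12, and the longest run of bases that the brightest Rpl36al probe shares is 6 with the brightest Rpl36a probe and 7 with any Rpl36a probe. Rpl36a was 8.94 to 9.20 in the day 7 controls, with a median of 9.05, and 9.22 to 9.82 after 90Sr, with a median of 9.54. Rpl36al was 7.04 to 7.49 in the same controls, with a median of 7.22, and 6.33 to 7.03 in the same 90Sr mice, with a median of 6.60. The mice were thus apart in opposite directions. Rpl36a changed by 0.48 ± 0.12 and Rpl36al by -0.64 ± 0.13 at day 7 (limma adjusted p = 0.0034 and 0.0014), and over the 5 days by 0.40 ± 0.08 and -0.80 ± 0.08. With spike-in scaling both were lower, by -0.60 and -1.80, and with the other scalings Rpl36a stayed above 0 and Rpl36al below it. The dimmest of the 3 Rpl36a probes gave a mean change of -0.07, against 0.40 and 0.43 for the others.

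Rps27 and its paralog Rps27l, a target gene of p53, were both lower. Rps27l ran from 5.22 over 5.32 to 5.42 in the day 7 controls and from 4.06 over 4.70 to 5.02 in the 90Sr mice, without overlap. It changed by -0.51, -0.68, -0.49, -0.94 and -0.99 over the days, and all but day 9 passed in limma (adjusted p between 0.0014 and 0.016). At day 4 it was -0.04 with 75th percentile scaling and did not pass. Rps27 changed by a mean of -0.80 ± 0.09, on a probe that the array's annotation places on chromosome 9 and not on chromosome 3, where RefSeq has the gene. Rpl10l, a testis-expressed paralog of Rpl10, passed the detection filter but was well above background on 8 of 56 arrays, so no change is given for it.

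Genes of inherited or acquired anaemia were followed as a fixed list of 15. Rpl5 and Rpl11, which bind Mdm2 when ribosome assembly fails, were both lower at days 7 and 25, Rpl5 by -0.65 and -0.81 and Rpl11 by -0.41 and -0.65. Rpl11 also passed at days 4 and 30. With 75th percentile scaling Rpl11 passed at day 30 alone. Rps14, the gene of the 5q- syndrome, was 0.49 at day 4, where it passed, and 0.07 to 0.46 later, where it did not. With quantile normalization it was lower at days 25 and 30 (-0.38 and -0.51). Rps24 was 0.43 at day 30, where it passed, and with quantile normalization it passed in the opposite direction (-0.39, adjusted p = 0.029 in limma), so it has no settled direction. Over the 5 days combined, 5 of the 15 were lower and 4 higher at adjusted p under 0.05, with a median of -0.10. Over all genes, 40% were lower and 43% higher.

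Rps19, the gene most often mutated in Diamond-Blackfan anaemia, had the smallest adjusted p of all members for a change in effect between days. At day 9 the controls ran from 7.58 over 7.95 to 8.31 and the 90Sr mice from 7.01 over 8.26 to 8.49. At day 25 they ran from 8.44 over 8.75 to 8.99 and from 7.49 over 7.99 to 8.26, with every 90Sr mouse below every control. At day 30 the 90Sr mice ran from 6.93 over 7.19 to 8.42 against 8.14 over 8.43 to 9.04 in controls. The changes were -0.08 ± 0.24, -0.35 ± 0.13, 0.10 ± 0.25, -0.79 ± 0.16 and -1.10 ± 0.26, and those of days 7, 25 and 30 passed in limma (adjusted p = 0.031, 0.001 and 0.002). The mean of days 25 and 30 lay 0.84 ± 0.19 below the mean of days 4, 7 and 9 on the log2 scale (limma, adjusted p = 0.0029, and 0.00042 without replicate 1 of the day 9 90Sr mice). With slide as a random block this difference was -0.69 ± 0.22 and no longer passed (adjusted p = 0.085). The gene was lower at days 25 and 30 under all 4 scalings.

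A 90Sr effect that differed between days was found for 4 of 89 members, against 22.7% of all genes: Rps19, Rpl28, Rpl30 and Rps2 (limma, adjusted p = 0.0087, 0.011, 0.015 and 0.038). Without replicate 1 of the day 9 90Sr mice, 48 members passed, against 31.9% of all genes, so the count rests on that mouse. With slide as a random block no member passed in limma, against 5.77% of all genes (5 members at unadjusted p under 0.05), and Rps19, Rpl28, Rpl30 and Rps2 had adjusted p of 0.18, 0.15, 0.20 and 0.22. The late effect differed from the early one for 4 members, against 12.7% of all genes (Rps19, Rpl28, Rpl30 and Rpl13a), and for 20 without that mouse, against 15.5%. None passed with slide as a random block, against 1.5% of all genes (4 members at unadjusted p under 0.05). Rpl7, next in the order of evidence for a difference between days (adjusted p = 0.055), changed by 0.63 at day 9 and 0.03 at day 25. Rpl13a, known as a reference gene for PCR, went from -0.38 ± 0.13 at day 4 to -1.22 ± 0.24 at day 30. Rpl30, whose yeast counterpart regulates its own splicing, was lower at days 4, 7, 25 and 30 (-0.38 to -0.87) and at -0.05 at day 9, and with 75th percentile scaling it passed at day 30 alone. These values are of its brightest probe. The second brightest Rpl30 probe gave changes of -0.32 to -0.78. The dimmest gave -0.007 to -0.22 at days 4 to 25 and 0.61 at day 30, so the change of Rpl30 depends on the probe. Between the control mice of different days, 60 members differed in level, against 56% of all genes. The controls of each day lay on slides and a scan day of their own, and with slide as a random block 25 members differed, against 32.4% of all genes.

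Rpl28 depended on the probe. Its brightest probe ran from 11.76 over 13.53 to 14.11 in the day 9 controls and from 12.14 over 12.80 to 13.04 in the 90Sr mice, and its changes were -0.54 at day 9 and 1.37 ± 0.31 at day 30 (limma, adjusted p = 0.0017). The array's annotation places this probe on chromosome 4 and RefSeq the gene on chromosome 7. The second probe, on chromosome 7, gave 0.59 at day 9 and 0.78 at day 30. Of 62 members with 2 probes well above background on at least 42 arrays, 60 had mean changes of the same sign in both, and 59 differed by less than 0.25. The 2 of opposite sign were Rpl7a, both near 0, and Rps15, with 0.30 by the brightest probe and -0.49 by the second. For Rps3 the dimmest of 3 probes gave 0.32 against -0.65 and -0.77. In all, the brightest probe of 13 of 87 members lay on another chromosome in the array's annotation than the gene in RefSeq.

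**Figure D4:**
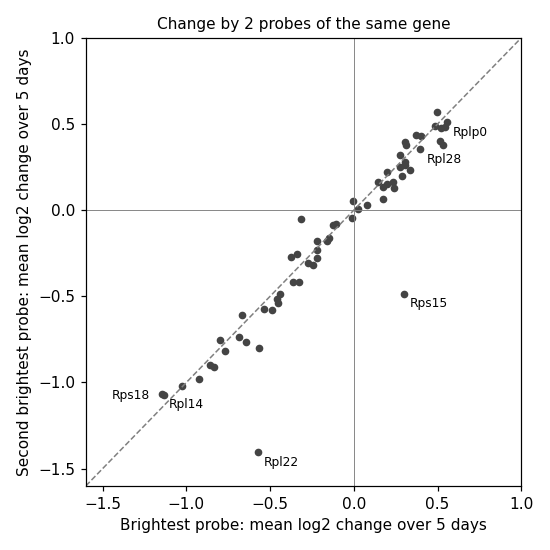
Mean log2 change over the 5 days by the brightest probe (horizontal) and the second brightest probe (vertical) of each of the 62 members with 2 probes well above background; the dashed line is equality. Points lie along the line from Rpl14 and Rps18 to Rplp0, and Rps15 and Rpl22 lie off it.

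Signal strength moved with the change, and its part in the result was not tested. The Spearman correlation of mean change with mean control level was 0.54 over the 89 members, and with the GC content of the probe 0.09. The 30 dimmest members had a median mean change of -0.42, the 29 in the middle -0.15 and the 30 brightest 0.30. The 222 other genes in the level range of the brightest members had a median of 0.53, the 308 in that of the middle ones 0.27, and the 15904 in that of the dimmest -0.10. Over all genes the correlation of mean change with control level was -0.26.

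Other gene groups of the translation apparatus are given beside the members by their counts and medians, and the differences between the groups were not tested. Over the 5 days together, the 75 mitochondrial ribosomal proteins had a median mean change of -1.04, with 60 lower and 9 higher at adjusted p under 0.05 in limma. The 63 ribosome assembly factors had a median of -1.12 (52 lower, 5 higher) and the 56 translation initiation and elongation factors -0.65 (36 lower, 10 higher). For the 89 cytosolic ribosomal proteins the median was -0.12, with 44 lower and 35 higher, and over all genes 40% were lower and 43% higher. Fau and Gnb2l1, ribosomal genes that the name rule leaves out, changed by -0.47 ± 0.06 and -0.42 ± 0.07. The 16 genes of the TOR pathway and of TOP mRNA control had 10 lower and 3 higher. Among them Larp1, which binds TOP mRNAs, changed by -0.95 ± 0.08, Rptor by -1.58 ± 0.13 and Mtor itself by 1.21 ± 0.10.

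**Figure D5:**
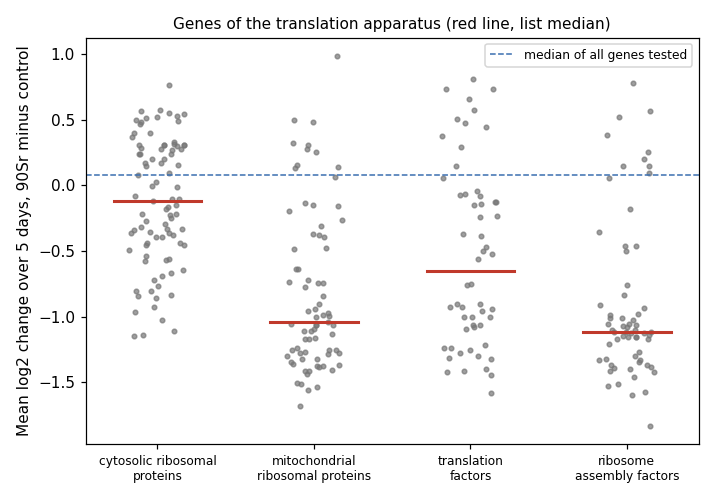
Mean log2 change over the 5 days (90Sr minus control, median-scaled) of each gene of 4 groups of the translation apparatus; grey points are genes, red lines the group medians, and the dashed line the median of all genes tested, 0.08. The cytosolic ribosomal proteins centre on -0.12 and the mitochondrial ribosomal proteins and assembly factors on -1.04 and -1.12.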

How the data were processed

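Whole blood of 56 mice was hybridized to 56 one-colour Agilent whole mouse genome arrays. The authors extracted spot signals with Agilent Feature Extraction (10.7 per the labels; the file headers give 11.5.1.1), and the deposited intensity is the background-corrected Cy3 signal. The authors also deposited a table of log2 values for 14200 probes, median-normalized and filtered on variation, which was used as an alternative; its array medians ran from 4.32 to 5.1, and its levels correlated with the scanner values at 0.999 or higher. The number of arrays limits the precision.

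Here log2 signal minus the median of 43020 non-control spots was used. Spots of a probe were averaged, the brightest probe per gene was kept, and a gene was dropped if its spot was flagged (non-uniform, or near background) in 25% of the hybridizations or more. Each day was tested with limma 3.58.1 (R 4.3.3; lmFit, eBayes) on all genes, with Benjamini-Hochberg adjustment over all genes, and a single fit of the 10 groups gave differences between days and mean changes. A called gene had p under 0.001 and at least a 2-fold change. Scripts were tested on simulated data. Alternatives were other scalings, background correction, filters, probe choice, blocks and leaving out each array; the second brightest probe was chosen after seeing the data. Members, lists, and rules were chosen with earlier results of these data known. The genes named were 26 fixed by role, those called on 3 or more days, the 5 highest, the 5 lowest, the 5 with the smallest p for a difference between days, and called members whose probes disagree in sign. Other members named, such as Rps4x, Rps12, Rps29, Rpl38 and Rps15, were added after their values were seen. Values of some genes are not reported here. Groups come from the sample titles, whose replicate numbers name separate mice.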

Additional observations from a re-analysis of the deposited data

Results flagged for a closer look

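A single array lay far from the rest of its group in 20 of the 160 groups examined (the mean of the members and 15 named members in 10 groups each). Chance alone flags about 1 group in 20. The measure is the gap from the extreme mouse to its nearest neighbour as a share of the group's range, against a limit of 0.829 for 4 mice and 0.625 for 6.

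Replicate 1 of the day 9 90Sr mice was the extreme one for the mean of the members (0.773), Rpl41 (0.677), Rplp1 (0.732), Rplp2 (0.742), Rps19 (0.709), Rpl36a (0.743) and Rpl36al (0.683). Among the day 9 controls, replicate 6 was extreme for Rpl41 (0.667), Rplp1 (0.685) and Rplp2 (0.712). Replicate 1 of the day 30 90Sr mice was extreme for Rps18 (0.648), Rpl18 (0.652), Rpl3 (0.706), Rps25 (0.836) and Rpl36al (0.661). At day 4, control replicate 3 was extreme for Rpl30 (0.931), Rpl36a (0.862) and Rpl36al (0.899), control replicate 4 for Rps18 (0.889), and 90Sr replicate 2 for Rps27l (0.852).

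The 90Sr effect differed between days for Rps19 (limma, adjusted p = 0.00868), Rpl28 (0.0106), Rpl30 (0.0145) and Rps2 (0.0384).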

How the results depend on the processing

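No called value turned its sign under any alternative, but the members' median change did with the scale, counts of called members moved widely, and the cause was not tested. With 75th percentile scaling, 4, 1, 14 and 3 members were called at days 4, 7, 9 and 25, the median changes at the 5 days were 0.41, 0.14, 0.54, 0.17 and 0.015, and 19 effects differed between days and 25 between late and early days (19.5%, 14.3%, 16.9% and 26.7% of all genes were called on those 4 days). With quantile normalization, 7, 2, 8 and 22 were called at days 4, 7, 9 and 30, their medians on days 4, 9 and 30 were -0.24, -0.22 and -0.53, and 8 and 15 effects differed (13.6%, 9.46%, 12.5% and 28.3% of all genes called). With spike-in scaling, 23, 87, 31 and 39 were called at days 4 to 25, the medians were -0.63, -2.20, -1.11, -0.97 and -0.72, and 69 and 11 effects differed (31.8%, 82%, 42.8% and 38.2% called). With normexp background correction no member was called by limma at days 4, 9, 25 or 30 (11, 9, 2 and 30 at unadjusted p under 0.05), and of all genes 0%, 0.458%, 0.00533% and 3.16% were called. The medians were -1.67, -0.64, 0.71 and 0.66 at days 4, 7, 25 and 30, no effect differed between days (14 at unadjusted p under 0.05), 81 differed between late and early days, and 2 levels differed between control days. For these settings, shares of all genes for effects and control-day levels are not given. Those counts thus cannot be read as particular to the members.

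Without the detection filter 1 member was called at day 7, against 9.72% of all genes. With the variation filter, which 23 members passed, the medians were -0.57, -0.65, -0.57, -0.92 and -0.78, with 2 effects differing between days and 12 levels between control days. With the mean of all probes, 1 was called at day 4 (17.9% of all genes) and 1 effect differed between late and early days. With the authors' processed values (32 members), 4, 3, 6 and 23 were called at days 4, 7, 9 and 30, the medians were -0.65, -0.72, -0.65, -0.88 and -1.19, and 12 levels differed between control days (28.1%, 21.5%, 24.9% and 41% of all genes called). With the second brightest probe (64 members), chosen after seeing the data, 1 was called at day 7 (14.7% of all genes) and 1 late effect differed. Shares of all genes for effects and control-day levels are not given for these settings either. At adjusted p under 0.05 with no minimum fold, 35, 44, 27, 48 and 51 members passed, against 53.7%, 57.6%, 42.5%, 64% and 64.1% of all genes.

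The replicate numbers did not pair the mice, since same-numbered deviations correlated between -0.276 and 0.323. With the number as a replicate block, no member was called by limma at day 9 (32 at unadjusted p under 0.05; 15.8% of all genes called), and no other count moved by over 1.5 times; the comparison of control days could not be fitted. With slide as a fixed block, which rests on 2 control and 2 90Sr arrays a day and is not possible at day 4, 3 were called at day 7 and none by limma at days 9, 25 and 30 (18, 3 and 16 at unadjusted p under 0.05), against 10.6%, 5.7%, 0.671% and 1.74% of all genes, with medians of -0.23 at day 9 and 0.044 at day 30. With slide as a random block, 5 were called at day 25 (20.2% of all genes), 25 levels differed between control days, and no effect differed between days or between late and early days (5 and 4 at unadjusted p under 0.05).

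Leaving out 1 array at a time gave 0 (control replicate 3) to 4 (control replicate 4) called at day 4, 0 to 2 at day 7, 1 (control replicate 5) to 6 (90Sr replicate 2) at day 9, 5 (control replicate 1) to 13 (90Sr replicate 2) at day 25 and 7 to 13 at day 30 (control replicates 1 and 4). The medians ran from -0.13 to 0.03, -0.23 to -0.13, 0.09 to 0.27, -0.36 to -0.28 and -0.26 to -0.12. Between 3 and 48 effects differed between days, 4 to 20 between late and early days, and 42 to 75 levels between control days, the highest of each without replicate 1 of the day 9 90Sr mice. Without that mouse 31.9%, 15.5% and 59% of all genes passed in turn. Rpl10l and Rps19-ps3 were well above background on 8 and 23 of 56 arrays, which limits their values.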
